A study of Mus musculus with 24 samples.

Results

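The comparison covered the gastrocnemius, the large calf muscle, of adult mice against that of embryos at E18.5, an embryonic stage shortly before birth. It used 6 of the 24 libraries of the study, 3 adult and 3 E18.5, chosen by their labels for muscle and stage. The assay was ATAC-seq, which reads accessible DNA by letting a transposase, Tn5, cut it and attach adapters. All mice were males of the inbred strain FVB/NJ with no altered allele and no treatment. Each adult library came from 1 animal, and each E18.5 library pooled the gastrocnemius muscles, left and right, of up to 5 male embryos of 1 litter. The series design places the adults at postnatal day 56, while the labels' protocols give 3 to 4 months, and these ages were not reconciled. Nuclei came from undigested muscle, so fibroblasts, vessel, nerve and blood cells could contribute beside muscle fibres. The other 18 libraries came from soleus, vastus intermedius and vastus lateralis of the same animals and litters.

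The study names the gastrocnemius a fast-biased muscle. A mouse limb muscle is built around E18.5 from newly fused fibres that still use embryonic and neonatal myosin heavy chains, encoded by Myh3 and Myh8. After birth the fast adult isoforms, encoded by Myh2, Myh1 and Myh4, replace them, glycolytic enzymes and the calcium-release apparatus become abundant, and the growth of the connective tissue slows. ATAC-seq peaks mark promoters and enhancers that are accessible to transcription factors in at least some of the nuclei.

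Each library was given as 1 list of peak positions on mm10 with no height or score. A call is therefore present or absent, and read depth is unknown. The adult lists held 174441, 191754 and 148259 peaks and the E18.5 lists 211354, 176112 and 134814, so the stages overlapped in list length (171485 ± 21898 against 174093 ± 38310, SD, n = 3 each). Median peak width was 369 ± 18.9 bp in the adult and 421 ± 17.4 bp at E18.5, and the groups did not overlap (exact permutation p = 0.1, the smallest that 3 against 3 allows, and 0.7 after adjustment over the measures). In these pooled tissues, fewer cells of a type and less open chromatin per cell cannot be told apart. The dates written in the deposited file names differ between the stages, so date and stage cannot be told apart. The list of adult replicate 1 held 303 peaks on the Y chromosome against 1249 to 2709 in the other 5 lists; autosomes alone gave 4019 adult-only and 10744 E18.5-only regions in the comparison below.

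Regions found in every library of 1 stage and in no library of the other were more numerous at E18.5. Peaks of the 6 lists that overlapped were merged into 504752 regions, of which 32237 were called in all 6 libraries. Called in 3 of 3 adult lists and 0 of 3 E18.5 lists were 4062 regions (0.805% of all regions, and 9.05% of the 44868 regions called in exactly 3 lists). The opposite pattern, 3 of 3 E18.5 lists and 0 of 3 adult lists, was found for 10948 regions (2.17% and 24.4%). There were thus 2.70 E18.5-only regions for each adult-only region. The order was reversed for regions called by 1 list alone, 173484 adult against 126145 E18.5. Called in 2 lists of 1 stage and 0 of the other were 17660 adult and 25624 E18.5 regions. A count of regions called in 3 of 3 lists depends on how far the lists of a stage agree, and the part of this agreement was not tested. The 2 classes together came to 15010 regions, and the other 9 ways of splitting the 6 lists 3 against 3 gave 2498 to 5119 (median 2762), so the stage split ranked first (exact permutation p = 0.1, the smallest possible). With only the first 115333 rows of each list, the length of the shortest of the 24 lists, the counts were 4283 and 10946, and the other splits gave 1245 to 2774. Without E18.5 replicate 3, the shortest of the 6 lists, 28051 regions were E18.5-only, and the adult-only count was 9770, 9152 or 10924 without adult replicate 1, 2 or 3 and 6918 without E18.5 replicate 1.

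**Figure D1:**
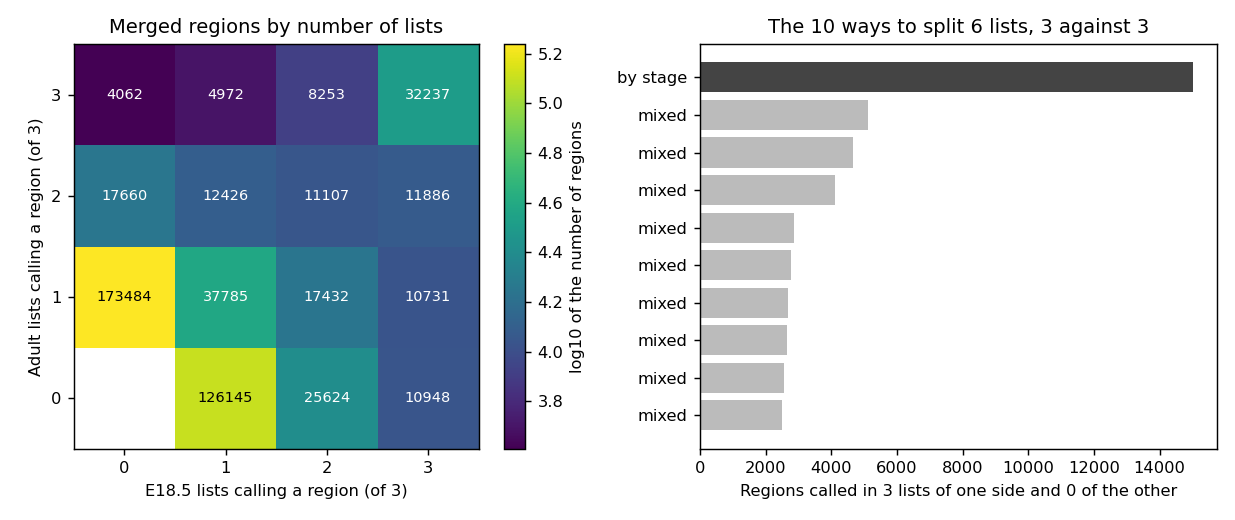
Left, number of merged regions (cells, colour on a log10 scale) by how many of the 3 adult lists (vertical) and of the 3 E18.5 lists (horizontal) called them, with 4062 regions in the adult-only corner and 10948 in the E18.5-only corner. Right, regions called in 3 lists of one side and 0 of the other for the split by stage (15010) and for the 9 mixed splits (2498 to 5119).

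E18.5 libraries also resembled each other more than adult libraries did. The share of regions that a pair of lists had in common (Jaccard index, shared regions over the regions of either list) averaged 0.346 between E18.5 lists, 0.257 between adult lists and 0.250 across stages. The mean within stages exceeded that across stages by 0.0511 (exact permutation, one-sided p = 0.1, the smallest possible). The adult lists among themselves ranged from 0.241 to 0.268, inside the range across stages of 0.223 to 0.275, while the E18.5 lists ranged from 0.307 to 0.408. With equal list length the adult lists ranged from 0.276 to 0.301 against 0.239 to 0.294 across stages, so the adult range was then no longer inside.

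The separated regions were broader than regions in general and lay near gene ends about as often. Their median width was 796.5 bp for adult-only and 801 bp for E18.5-only regions, against 392 bp for all regions and 1413 bp for those called in all 6 libraries. Within 1 kb of the start or end of a gene lay 9.65% of the adult-only and 11.02% of the E18.5-only regions, against 10.03% of all regions and 42.3% of the regions called in all 6. Inside genes lay 59.3% of the adult-only regions, 50.5% of the E18.5-only regions and 52.4% of all regions. Between genes lay 31.1%, 38.4% and 37.6% in the same order. A separated region had to be called in every list of a stage. Of all regions, 173484 were called by 1 adult list alone and 126145 by 1 E18.5 list alone. The comparisons with all regions therefore cannot part stage from the number of lists that call a region. Other regions called in as many lists were not compared, and the part of this number in width and position was not tested. The gene table used has no exons, so introns, exons and UTRs were not told apart.

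Among the widest separated regions, an adult-only region lay at chr1:17119744-17121721, with peaks of 1925, 1668 and 1705 bp in the 3 adult libraries. Its nearest protein-coding gene, 21822 bp away, was Jph1, which encodes junctophilin-1 and holds the sarcoplasmic reticulum close to the transverse tubules. Of the libraries of the other muscles, 8 of the 9 adult ones called this region, and so did 1 of the 9 E18.5 ones. Another adult-only region, chr9:44941503-44944040, lay inside the ubiquitin ligase gene Ube4a and was called in 9 of those 9 adult and 2 of those 9 E18.5 libraries. On the E18.5 side, chr1:163735422-163737856 lay 10190 bp from Mettl11b, and chr6:5379202-5381080 lay 2306 bp from Asb4. In the other muscles these were called in 0 adult libraries each, and in 9 and 8 of the 9 E18.5 libraries. A region at the end of the lncRNA gene Gm51527 and inside Nrg1, which encodes neuregulin-1, a growth factor of nerve and muscle, was E18.5-only in gastrocnemius (chr8:32883202-32885183) but was called in 6 of the 9 adult libraries of other muscles.

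The gene with the most adult-only regions nearest to it was Ttn, which encodes titin, the giant spring protein of the sarcomere. Of the 154 merged regions nearest to Ttn, 22 were adult-only and 1 was E18.5-only. All 22 lay inside the gene (chr2:76703980-76982557), from 11.96 to 242 kb after its first base, while the E18.5-only region lay 1.68 to 2.52 kb before it. The window at the start of Ttn was called in all 6 libraries. Neb, which encodes nebulin, the ruler of the thin filament, had 11 adult-only regions and 0 E18.5-only regions among 85. Mylk4, a myosin light chain kinase of striated muscle, had 10 and 1 among 88. Pde4d, a phosphodiesterase that degrades cAMP, had 14 and 2 among 295, Kcnma1, a calcium-activated potassium channel, 11 and 1 among 198, Rbfox1, a splicing factor of muscle and brain, 11 and 3 among 263, and the nuclear receptor gene Rora 9 and 3 among 256.

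**Figure D2:**
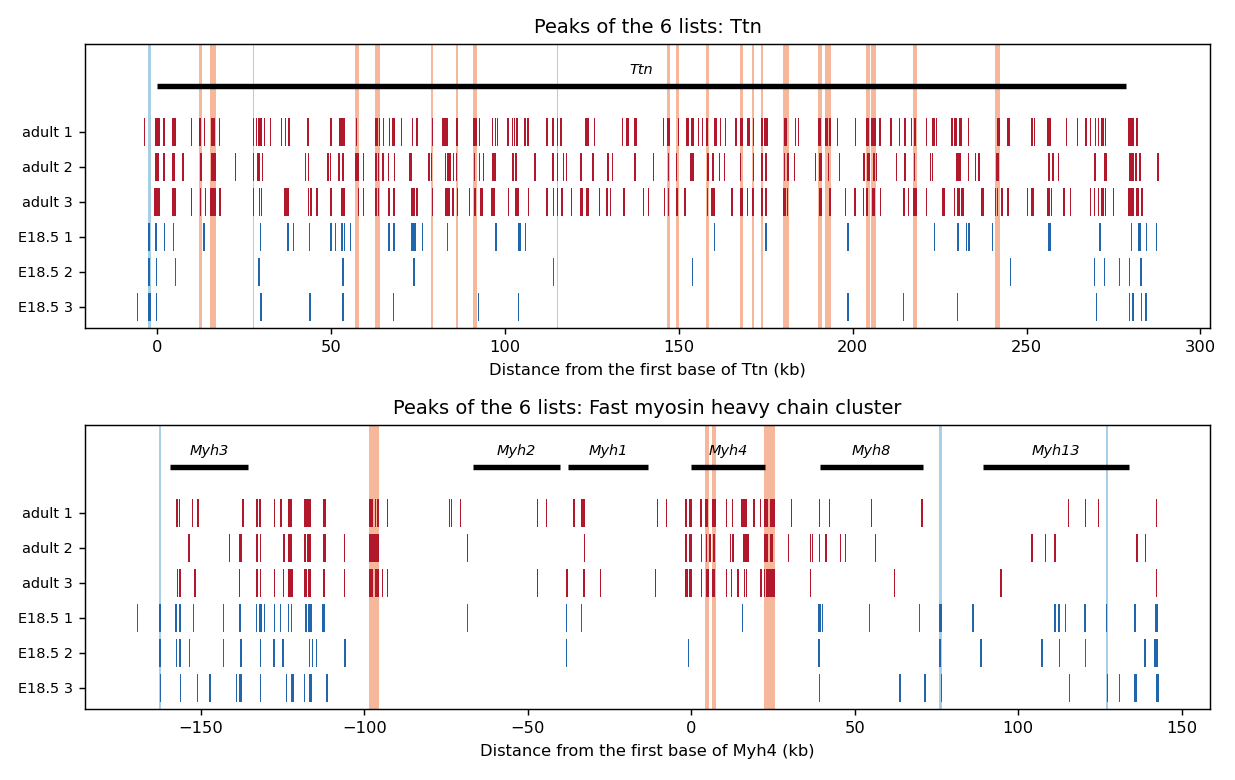
Peaks of the 6 lists (1 row per library, adult in red, E18.5 in blue) along Ttn, as distance from its first base in kb, and along the myosin heavy chain cluster, as distance from the first base of Myh4 in kb. Orange bands mark the 22 and 4 adult-only regions and blue bands the 1 and 3 E18.5-only regions. Within Ttn the rows of the adult libraries are denser than those of the E18.5 libraries.

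On the E18.5 side the genes with the most separated regions had several known roles. Dgki, a diacylglycerol kinase, had 16 E18.5-only regions and 0 adult-only regions among 131. Tenm4, a teneurin of cell contact, had 13 and 0 among 308. Adam12, a metalloprotease-disintegrin made by fusing and regenerating muscle and by mesenchyme, had 12 and 0 among 100. Dlc1, which encodes a GTPase-activating protein, had 11 and 0 among 103, and Disp1, which releases Hedgehog ligands, 10 and 0 among 76. Rbms3, an RNA-binding protein, had 16 and 1 among 253, the DNA repair gene Rad51b 14 and 1 among 164, and the transcription activator gene Camta1 11 and 2 among 319. Long genes collect more regions of every kind, so these counts are to be read against the number of regions nearest to each gene. Of all merged regions, 0.805% were adult-only and 2.17% E18.5-only. In all, 3061 genes were nearest to an adult-only region, 7130 to an E18.5-only region and 1191 to both.

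To compare genes, the regions called in each locus (the gene body plus 10 kb on each side) were counted per library, scaled to 100000 called regions, and tested with limma on the log2 scale with 0.5 added. Of 25422 loci with a mean of at least 2 called regions, 127 (0.5%) had more regions in the adult and 135 (0.531%) had more at E18.5 at an adjusted p under 0.05. In each of these 262 loci the 3 scaled adult values did not overlap the 3 E18.5 values, which was so for 1739 loci (6.84%) with higher adult values and 2839 (11.2%) with higher E18.5 values in all. The median difference over all loci was -0.06. The differences below are log2 adult minus E18.5 of the scaled counts, and they understate the change of low loci. Neighbouring loci can share regions. Without scaling to the number of called regions, no locus passed (0 by limma, 2569 at an unadjusted p under 0.05), although all 262 kept their direction. The count of E18.5-higher loci fell to 12, 19 and 39 without E18.5 replicate 1, 2 or 3 and rose to 211 without adult replicate 2. That of adult-higher loci fell to 71, 56 and 80 without those E18.5 replicates and to 65 and 82 without adult replicate 1 or 3. Of the 35 calls named in the text, 17 passed in each of the 6 fits that left out 1 library, and all kept their direction: Ttn, Neb, Mylk4, Trdn, Jph1, Stim1, Xirp2, Prkaa2, Myh4, Pgm1, Gpd2, Thrb, Mbnl1 and Dnajc15 in the adult and Basp1, Dgki and Gm35988 at E18.5. For the others the libraries without which the call was lost are given.

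**Figure D3:**
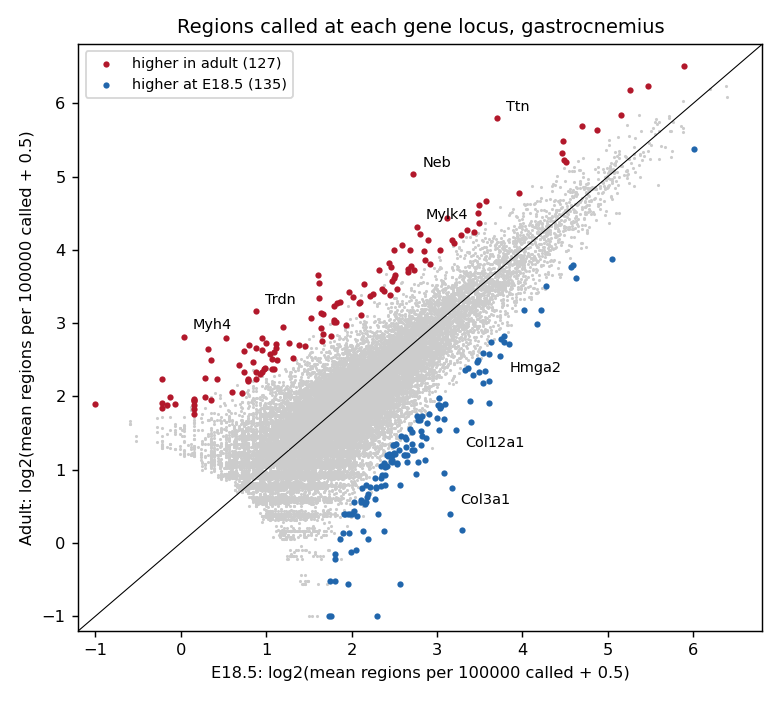
Each point is 1 of 25422 gene loci, with the mean number of regions called per 100000 at E18.5 (horizontal) and in the adult (vertical), both as log2 after adding 0.5. Red marks the 127 loci higher in the adult, blue the 135 higher at E18.5, grey the rest, and the line marks equal values.

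Sarcomere genes stood among the adult-higher loci with the smallest p-values. The Ttn locus held 98, 81 and 90 regions in the adult libraries and 35, 14 and 16 in the E18.5 libraries, a difference of 2.13 (SE 0.22, adjusted p = 9.79e-05). The Neb locus held 61, 41 and 54 against 11, 5 and 13 (2.41, SE 0.31, adjusted p = 0.00111). In both genes the lowest adult library was far above the highest E18.5 library. The Mylk4 locus held 33, 31 and 31 against 14, 10 and 8 (1.55, SE 0.20, adjusted p = 0.000669). Actn2, which encodes the Z-disc protein alpha-actinin-2, held 27, 24 and 24 against 18, 10 and 7 (1.16, adjusted p = 0.0148), a call lost without E18.5 replicate 2 or 3 (adjusted p up to 0.0633). These are long genes, and differences in the number of regions along a gene body say nothing of its promoter.

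Some genes of calcium release and coupling passed with more regions in the adult, and others did not pass. Trdn, which encodes triadin of the calcium-release complex, held 13, 13 and 15 regions in the adult and 3, 3 and 1 at E18.5 (2.31, SE 0.29, adjusted p = 0.000563). Jph1 held 30, 20 and 25 against 9, 7 and 9 (1.495, SE 0.25, adjusted p = 0.00632). Stim1, the calcium sensor of the sarcoplasmic reticulum, held 28, 16 and 22 against 11, 8 and 6 (1.34, adjusted p = 0.0115). Jph1 and Stim1, together with the actin-binding Xirp2 (8, 10 and 10 against 3, 0 and 1, 2.52, adjusted p = 0.00632) and the kinase subunit Prkaa2 of AMPK (12, 11 and 12 against 3, 4 and 2, 1.76, adjusted p = 0.00386), were picked for naming after their values were seen. The calcium release channel gene Ryr1 held 42, 36 and 43 against 35, 34 and 20 (0.48, adjusted p = 0.236), and Casq1, the calcium store protein of fast fibres, 6, 9 and 8 against 8, 7 and 6 (0.12, adjusted p = 0.895).

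The myosin heavy chain cluster on chromosome 11 differed at Myh4, which encodes the fastest isoform, myosin IIb. The Myh4 locus (gene body chr11:67237812-67260447) held 12, 10 and 10 regions in the adult and 2, 1 and 0 at E18.5 (2.91, SE 0.38, adjusted p = 0.000691). The other myosin heavy chain genes given here did not pass the test, while the lncRNA gene Myhas was among the adult-higher loci. Myh2 held 7, 3 and 3 against 3, 1 and 0 (1.53, adjusted p = 0.155), with adult replicates 2 and 3 equal to E18.5 replicate 1 before scaling. Myh1 held 6, 1 and 5 against 2, 1 and 0 (1.47, adjusted p = 0.253), and adult replicate 2 overlapped the E18.5 values. The embryonic gene Myh3 held 9, 6 and 9 against 12, 9 and 8 (-0.24, adjusted p = 0.765), and the neonatal gene Myh8 held 6, 8 and 2 against 5, 2 and 4 (0.36, adjusted p = 0.746). With 50 kb on each side, where neighbouring loci share more regions, Myh2 (1.67, adjusted p = 0.00338), Myh1 (2.97, adjusted p = 0.00162) and Myh8 (1.136, adjusted p = 0.0106) passed. The slow myosin gene Myh7 held 10, 8 and 14 against 12, 9 and 8 (0.13, adjusted p = 0.887).

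Along the whole cluster, from Myh3 to Myh13, 96 regions were merged, of which 4 were adult-only and 3 E18.5-only. One adult-only region lay between Myh3 and Myh2 (chr11:67139105-67142374), 95.4 to 98.7 kb before the first base of Myh4. The other 3 lay inside Myh4 or across its end, at 4.17 to 5.55, 6.38 to 7.49 and 22.1 to 25.7 kb from its first base. The E18.5-only regions lay just before Myh3, beyond Myh8 and inside Myh13 (75.8 to 76.6 and 127 to 128 kb from the first base of Myh4 for the last 2).

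The fast fibre list, contractile and metabolic genes of fast fibres, had 4 of 22 loci higher in the adult and 0 higher at E18.5, with a median difference of 0.41. Besides Myh4 and Mylk4 these were Myl1, a fast essential light chain, and Myom2, the M-band protein myomesin-2. Myl1 held 10, 7 and 11 regions against 5, 3 and 1 (1.58, SE 0.34, adjusted p = 0.0261), and Myom2 31, 25 and 25 against 19, 14 and 11 (0.88, adjusted p = 0.0350). The Myl1 call was lost without adult replicate 1 or 3 or E18.5 replicate 2 or 3 (adjusted p up to 0.0924), and that of Myom2 in all fits but the one without adult replicate 2 (up to 0.137). Of the 500 regions in the loci of this list, 34 (6.8%) were adult-only and 9 (1.80%) E18.5-only, beside 0.863% and 2.18% of the 376451 regions in all gene loci. Several short fast genes missed the threshold. Actn3, the alpha-actinin of fast fibres, held 7, 7 and 7 against 6, 5 and 7 (0.21, adjusted p = 0.81), and Tnni2, fast troponin I, 4, 3 and 3 against 4, 2 and 2 (0.31, adjusted p = 0.772). With covered base pairs both passed (0.79, adjusted p = 0.0491, and 0.82, adjusted p = 0.0438).

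The slow fibre list had 1 of 16 tested loci higher in the adult, Mybpc1, which encodes slow myosin-binding protein C (16, 13 and 16 against 9, 2 and 5, 1.55, adjusted p = 0.0339), and 0 higher at E18.5, with a median of 0.13. This call was lost without adult replicate 1 or 3 or E18.5 replicate 2 or 3 (adjusted p up to 0.112). Embryonic and neonatal muscle genes gave 0 of 13 in either direction (median -0.03). Of the 291 regions in their loci, 4 (1.37%) were adult-only and 8 (2.75%) E18.5-only, beside 0.863% and 2.18% in all gene loci. Genes of glycolysis and glycogen had 1 of 20 loci pass with more regions in the adult and 0 with more at E18.5, with a median of 0.40. Pgm1, phosphoglucomutase-1, held 17, 18 and 19 regions against 9, 6 and 5 (1.38, SE 0.23, adjusted p = 0.00638). The adult values lay above and apart from the E18.5 values in 7 of the 20 loci, beside 6.84% of all loci tested. Among these 7 were the glycogen synthase gene Gys1 (11, 9 and 10 against 8, 6 and 5, 0.63, adjusted p = 0.24) and the branching enzyme gene Gbe1 (18, 12 and 15 against 10, 7 and 5, 1.00, adjusted p = 0.0533). Of the 364 regions in these loci, 22 (6.04%) were adult-only and 0 were E18.5-only. Oxidative metabolism had 1 of 21 loci higher in the adult, Lpl, lipoprotein lipase (10, 7 and 6 against 5, 2 and 1, 1.46, adjusted p = 0.0384), and a median of 0.07; the Lpl call was lost without the same 4 libraries (adjusted p up to 0.131). Outside the list, Gpd2, the mitochondrial glycerol-phosphate dehydrogenase, held 19, 19 and 17 against 5, 5 and 3 (1.93, SE 0.24, adjusted p = 0.000386).

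Regulators of fibre type had 2 of 23 loci higher in the adult and 0 higher at E18.5 (median 0.19), beside 0.5% and 0.531% of all loci. Eya1, a transcriptional co-activator of developing muscle, held 16, 15 and 10 regions against 8, 3 and 3 (1.51, SE 0.28, adjusted p = 0.0103). Sox6, a repressor of slow genes, held 53, 42 and 37 against 32, 24 and 20 (0.80, SE 0.18, adjusted p = 0.0323). The Eya1 call was lost without E18.5 replicate 2 (adjusted p = 0.0536), and that of Sox6 in all fits but the one without adult replicate 2 (up to 0.137). Nfix, which turns myoblasts from the embryonic to the foetal program, held 31, 33 and 34 against 32, 29 and 22 (0.26, adjusted p = 0.564), and Ppargc1a, a co-activator of mitochondrial genes, 45, 49 and 26 against 39, 26 and 17 (0.57, adjusted p = 0.167). Both ranges overlapped before scaling. With covered base pairs Ppargc1a passed (0.69, adjusted p = 0.0264).

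Hormone and clock genes changed at few loci. Of 10 loci of thyroid hormone action, 1 passed in each direction (median 0.17). The receptor gene Thrb held 36, 31 and 23 regions in the adult and 13, 13 and 7 at E18.5 (1.42, SE 0.21, adjusted p = 0.00258). The Thrb locus held 0 separated regions in either direction. Rora, a nuclear receptor that acts on the clock gene Arntl, held 141, 104 and 121 against 94, 83 and 47 (0.76, SE 0.16, adjusted p = 0.0295) and was the only 1 of 16 circadian clock loci to pass. The Rora call was lost without adult replicate 1 or 3 or E18.5 replicate 1 or 3 (adjusted p up to 0.123). The glucocorticoid and atrophy list gave 0 of 16 in either direction with a median of 0.25, and Zbtb16, a target of the glucocorticoid receptor, held 49, 51 and 54 against 39, 38 and 27 (0.59, adjusted p = 0.099), a locus that passed with covered base pairs (1.06, adjusted p = 0.000395). Immediate early genes, which respond to handling of tissue, gave 0 of 13 and a median of 0.10. Their loci held 0 separated regions among 139, where the shares in all gene loci were 0.863% adult-only and 2.18% E18.5-only.

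Extracellular matrix genes had 4 of 19 loci higher at E18.5 and 0 higher in the adult, with a median of -0.40. Over all loci tested, 0.531% were higher at E18.5 and 0.5% in the adult, with a median of -0.06. Col3a1, which encodes type III collagen of loose connective tissue, held 5, 1 and 0 regions in the adult and 13, 13 and 15 at E18.5 (-2.85, SE 0.51, adjusted p = 0.0148). Col12a1, a collagen that binds to fibril surfaces, held 4, 5 and 3 against 24, 16 and 7 (-1.63, SE 0.28, adjusted p = 0.00729). Col1a2, the second chain of type I collagen, held 3, 6 and 1 against 9, 9 and 11 (-1.54, SE 0.36, adjusted p = 0.0441). The fourth was the microfibril gene Fbn2, with 12, 6 and 4 against 25, 18 and 10 (-1.202, adjusted p = 0.0497). The Col3a1 call was lost without E18.5 replicate 3 (adjusted p = 0.0659) and that of Col12a1 without E18.5 replicate 1 (0.0689). Those of Col1a2 and Fbn2 were lost in all fits but the one without adult replicate 2 or adult replicate 1, respectively (up to 0.177 and 0.194). Col1a1, the partner chain of type I collagen, held 6, 7 and 9 against 12, 8 and 10 (-0.40, adjusted p = 0.556). Of the 702 regions in the loci of this list, 1 (0.142%) was adult-only and 32 (4.56%) were E18.5-only. The shares in all gene loci were 0.863% and 2.18%.

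Markers of other cell types were counted in the same way, beside these matrix genes. Fibro-adipogenic cell and fibroblast markers had 1 of 11 loci higher at E18.5, Col14a1 (14, 12 and 7 against 26, 24 and 17, -0.99, SE 0.22, adjusted p = 0.0339), and 0 higher in the adult. This call was lost without adult replicate 3 or any E18.5 replicate (adjusted p up to 0.147). Their regions summed to 110, 111 and 89 per adult library and to 147, 140 and 120 per E18.5 library, and Pdgfra, the receptor that defines these cells, held 9, 11 and 8 against 16, 16 and 14 (-0.67, adjusted p = 0.149). Skeletal muscle fibre markers had 4 of 12 higher in the adult (Actn2, Neb, Trdn and Ttn) and 0 at E18.5, with sums of 255 to 296 against 101 to 160. Without Ttn and Neb the sums were 132 to 137 against 72 to 114, and Acta1, skeletal actin, held 5 regions in every library. The other 10 marker lists, with 4 to 10 tested loci each, gave 0 calls in either direction. Of all loci tested, only 0.5% (adult) and 0.531% (E18.5) were called. Median differences were -0.31 for immune cells, -0.29 for skin epithelium, -0.26 for heart muscle and -0.19 for tendon. The median was -0.24 for fibro-adipogenic cells and fibroblasts and -0.06 over all loci. The rest of the 10 lists had medians from -0.03 to 0.17. The sums are not scaled to the regions called. Sums ran from 24 to 36 in the adult and 30 to 47 at E18.5 for tendon, from 91 to 114 and 91 to 144 for endothelium, from 72 to 92 and 73 to 106 for smooth muscle and pericytes, from 46 to 53 and 46 to 76 for immune cells, and from 62 to 81 and 64 to 88 for cartilage and bone. They ran from 61 to 69 and 55 to 80 for Schwann cells and neurons, from 31 to 44 and 26 to 41 for adipocytes, from 16 to 27 and 17 to 24 for erythroid cells, from 39 to 48 and 37 to 71 for heart muscle, and from 24 to 38 and 24 to 40 for skin epithelium. Every muscle fibre marker locus had regions in all 6 libraries, and the red cell gene Alas2 was among the markers with 0 regions in every library. The part of a changed cell makeup in the matrix and muscle results was not tested.

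Growth genes of the foetus had 2 of 15 loci higher at E18.5 and 0 higher in the adult (median -0.37). Of all loci tested, 0.531% were higher at E18.5 and 0.5% in the adult. The groups were apart with E18.5 higher in 8 of the 15, beside 11.2% of all loci tested. Hmga2, a chromatin protein of growing tissues, held 6, 14 and 7 regions against 28, 24 and 14 (-1.24, SE 0.25, adjusted p = 0.0196), where adult replicate 2 equalled E18.5 replicate 3 before scaling. The imprinted zinc finger gene Plagl1 held 4, 3 and 2 against 13, 10 and 6 (-1.42, SE 0.28, adjusted p = 0.0196). Gpc3, an X-linked glypican that limits growth, held 1, 5 and 3 against 16, 11 and 4 (-1.50, adjusted p = 0.07), and the groups overlapped before scaling. The RNA-binding gene Igf2bp3 held 14, 18 and 12 against 19, 18 and 13 (-0.16, adjusted p = 0.8). Hoxd13, the most distal gene of its cluster, held 3, 4 and 3 against 11, 8 and 7 (-1.17, SE 0.27, adjusted p = 0.037), as 1 of 12 Hox loci. The Hmga2 call was lost without adult replicate 1 or E18.5 replicate 1 or 2 (adjusted p up to 0.0890), that of Plagl1 without E18.5 replicate 1 or 2 (up to 0.103), and that of Hoxd13 in all fits but the one without adult replicate 2 (up to 0.144). Limb patterning (16 loci), cell cycle (18), myogenic progenitor (16) and neuromuscular junction genes (12) gave 0 calls in either direction, with medians of -0.18, -0.18, -0.10 and -0.17.

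Of other loci higher at E18.5, Basp1, a membrane protein of growing axons, held 1, 3 and 3 regions against 13, 14 and 12 (-2.20, SE 0.32, adjusted p = 0.00181). Dgki held 20, 32 and 19 against 68, 57 and 40 (-1.18, SE 0.18, adjusted p = 0.00273). Tenm4 held 68, 80 and 56 against 128, 109 and 85 (-0.64, SE 0.13, adjusted p = 0.0221). On the X chromosome, the chloride transporter gene Clcn5 held 1, 1 and 1 against 14, 7 and 4 (-2.16, SE 0.36, adjusted p = 0.00632), and the lncRNA gene Gm35988 2, 1 and 1 against 20, 13 and 10 (-2.78, SE 0.29, adjusted p = 9.79e-05). The Clcn5 call was lost without E18.5 replicate 1 (adjusted p = 0.0925), and that of Tenm4 without adult replicate 1 or any E18.5 replicate (up to 0.112). With X and Y loci left out of the test, 127 adult-higher and 126 E18.5-higher loci passed.

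**Figure D4:**
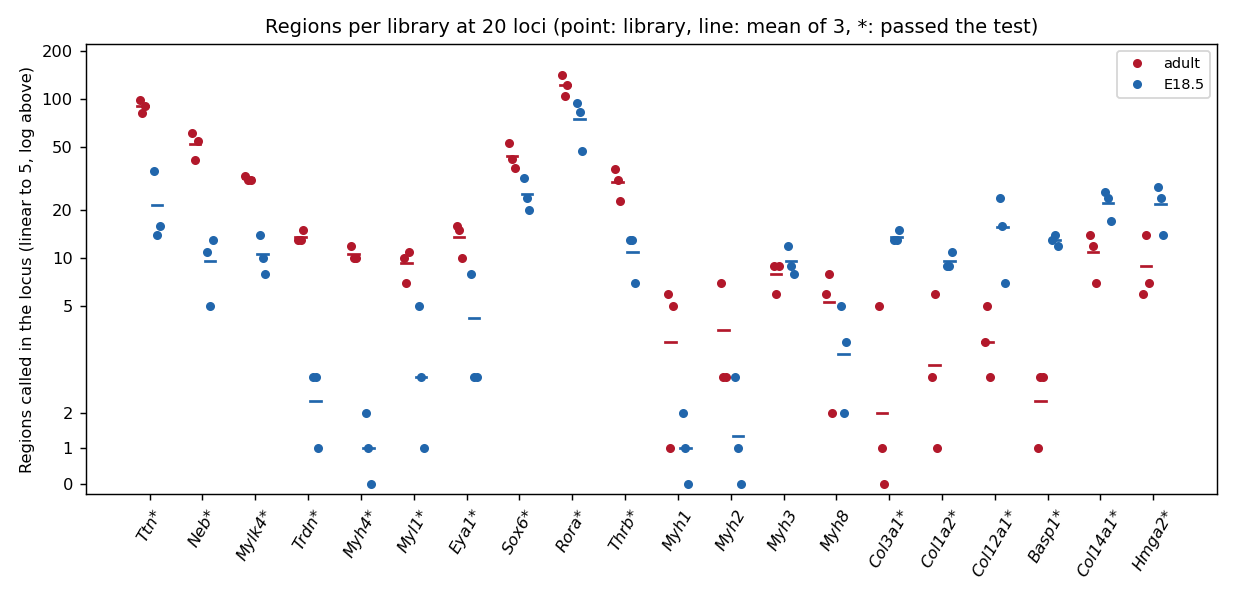
Number of regions called in each of 20 loci (gene body plus 10 kb each side), 1 point per library, adult in red and E18.5 in blue, with a line at the mean of 3; the axis is linear up to 5 and logarithmic above. Stars mark loci that passed the test. At Ttn, Neb, Trdn and Myh4 all adult points lie above all E18.5 points, and at Col3a1 and Basp1 all lie below.

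Calls at gene starts were read from the RefSeq promoter windows of GRCm38.p6, the assembly of mm10, which reach from 250 bases before a start to 50 after it. Of 32851 windows of 27025 genes, 112 (0.341%) at 102 genes were adult-only, with a peak in every adult library and none in the E18.5 libraries, and 695 (2.12%) at 652 genes were E18.5-only; 36.4% were called in all 6. With the first rows of each list the counts were 120 and 797. The adult-only count was 202, 189 or 197 without adult replicate 1, 2 or 3 and 220 without E18.5 replicate 1, and the E18.5-only count was 1374 without E18.5 replicate 3. Among the listed genes, adult-only windows were those of Myh4, Mylk4, the calcium pump gene Atp2a1, the Z-disc gene Myoz2, the glycogen-targeting phosphatase subunit gene Ppp1r3a, and 1 of several starts of the calcium buffer gene Pvalb and the glycolytic genes Aldoa and Pfkm. The other windows of Pvalb and Aldoa, and 2 of the other 3 of Pfkm, were called in all 6 libraries. E18.5-only windows were those of the cardiac actin and troponin T genes Actc1 and Tnnt2, both used by foetal skeletal muscle, of Igf2bp3, of Hand2, Hoxd11 and Elavl4, of the matrix genes Postn and Thbs4, and of Cnn1, Cidec and Ucp1. For Tnnt2, Hoxd11, Elavl4, Postn and Cidec this was 1 of several starts. The other Hoxd11 window was called in 1 adult and 3 E18.5 libraries and the other Cidec window in 1 and 1, while the other windows of Tnnt2, Elavl4 and Postn were called in 0 adult and at most 1 E18.5 library. Cidec was not separated with the first rows. Promoter and locus could differ. The Atp2a1 locus held 9, 10 and 8 regions in the adult against 10, 11 and 6 (0.05, adjusted p = 0.961), and the Igf2bp3 and Pvalb loci did not pass either (Pvalb 6, 6 and 8 against 4, 7 and 5, 0.31, adjusted p = 0.726). With covered base pairs in place of regions, however, the Atp2a1 and Pvalb loci passed with more in the adult (1.00, adjusted p = 0.00590, and 1.42, adjusted p = 0.00101), the direction of these windows.

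The 250 bases before the start are shown for 4 adult-only and 4 E18.5-only windows, because these starts differed in all 6 libraries. The sequences are the RefSeq ones of GRCm38.p6, written 5′ to 3′ on the strand of the gene, with the base next to the start last. Capitals mark any match, on either strand, to 14 short motifs of factors known in muscle and mesenchyme: the myogenic E-box CAGCTG, TEAD GGAATG, AP-1 TGANTCA, RUNX TGTGGT, NFI half-site TGCCAA, ETS GGAAGT, SP and KLF GGGCGG, nuclear receptor half-site AGGTCA, glucocorticoid half-site AGAACA, homeobox TAATTA, MEIS TGACAG, SOX AACAAAG, MEF2 and the SRF CArG box. Positions on mm10 are chr11:67237562-67237811 (plus strand) for Myh4, chr13:32783965-32784214 (minus) for Mylk4, chr7:126463074-126463323 (minus) for Atp2a1 and chr15:78206401-78206650 (minus) for Pvalb.
Myh4: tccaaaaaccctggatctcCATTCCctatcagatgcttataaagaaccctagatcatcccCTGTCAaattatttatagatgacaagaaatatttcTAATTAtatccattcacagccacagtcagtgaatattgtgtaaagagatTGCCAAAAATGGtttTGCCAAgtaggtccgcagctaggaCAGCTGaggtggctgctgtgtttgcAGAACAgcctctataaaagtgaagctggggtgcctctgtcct
Mylk4: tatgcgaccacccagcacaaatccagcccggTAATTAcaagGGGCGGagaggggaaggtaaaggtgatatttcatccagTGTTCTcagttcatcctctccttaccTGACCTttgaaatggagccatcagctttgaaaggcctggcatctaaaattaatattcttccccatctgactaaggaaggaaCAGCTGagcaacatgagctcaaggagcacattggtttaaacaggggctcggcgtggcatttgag
Atp2a1: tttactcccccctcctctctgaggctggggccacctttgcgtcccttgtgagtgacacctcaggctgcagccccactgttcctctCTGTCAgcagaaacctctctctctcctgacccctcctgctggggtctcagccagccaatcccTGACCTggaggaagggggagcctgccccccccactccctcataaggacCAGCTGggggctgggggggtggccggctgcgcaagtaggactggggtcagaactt
Pvalb: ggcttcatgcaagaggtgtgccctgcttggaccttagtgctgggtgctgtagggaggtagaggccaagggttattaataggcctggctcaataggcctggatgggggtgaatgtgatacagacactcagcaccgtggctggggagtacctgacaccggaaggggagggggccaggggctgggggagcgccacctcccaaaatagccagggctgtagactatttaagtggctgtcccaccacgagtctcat
The E18.5-only starts are those of Actc1 (chr2:114052876-114053125, minus), Tnnt2 (chr1:135836084-135836333, plus), Igf2bp3 (chr6:49214955-49215204, minus) and Thbs4 (chr13:92794819-92795068, minus).
Actc1: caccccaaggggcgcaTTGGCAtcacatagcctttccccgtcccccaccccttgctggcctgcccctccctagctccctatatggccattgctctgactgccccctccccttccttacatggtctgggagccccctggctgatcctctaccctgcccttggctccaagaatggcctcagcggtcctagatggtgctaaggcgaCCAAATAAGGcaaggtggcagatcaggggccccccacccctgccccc
Tnnt2: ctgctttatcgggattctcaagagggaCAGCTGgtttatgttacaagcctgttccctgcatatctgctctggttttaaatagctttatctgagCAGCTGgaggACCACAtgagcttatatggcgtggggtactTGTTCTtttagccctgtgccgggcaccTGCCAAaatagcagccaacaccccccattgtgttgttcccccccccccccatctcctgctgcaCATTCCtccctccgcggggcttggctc
Igf2bp3: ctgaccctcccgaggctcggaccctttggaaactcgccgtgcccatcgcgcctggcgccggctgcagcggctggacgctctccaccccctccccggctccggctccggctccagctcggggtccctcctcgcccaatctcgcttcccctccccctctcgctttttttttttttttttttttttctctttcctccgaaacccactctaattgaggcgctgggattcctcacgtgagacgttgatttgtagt
Thbs4: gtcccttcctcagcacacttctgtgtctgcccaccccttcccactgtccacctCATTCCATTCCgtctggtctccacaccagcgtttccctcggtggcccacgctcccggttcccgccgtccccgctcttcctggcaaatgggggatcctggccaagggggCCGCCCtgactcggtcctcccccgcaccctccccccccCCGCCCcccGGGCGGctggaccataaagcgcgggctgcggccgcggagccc
The first 3 adult-only sequences each hold an E-box, which ends 62, 59 and 50 bases before the start of Myh4, Mylk4 and Atp2a1. The Myh4 sequence also holds a CArG box 95 to 104 bases before the start, which overlaps an NFI half-site at 101 to 106. Actc1 holds a CArG box 38 to 47 bases before its start, and Tnnt2 holds E-boxes that end 152 and 218 bases before its start. No match to the motifs as searched lies in the shown bases of Pvalb and Igf2bp3. MEF2 and the CArG box were searched as strict patterns of 10 letters. Bases that fit only a looser form of a motif stay in small letters, so small letters do not show that a site is absent.

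Over all windows of 300 bases, the E-box was present in 26.8% of the adult-only windows (30 of 112), 22.7% of the E18.5-only windows (158 of 695), 14.9% of the windows called in all 6 libraries and 16.3% of all 32851 windows. The SP and KLF motif was present in 5.36% of the adult-only windows (6 of 112), 43.6% of the E18.5-only windows (303 of 695) and 35.7% of all windows. The NFI half-site was found in 25.0%, 15.8% and 14.1% in the same order, and the MEF2 motif in 3.57% (4 windows), 0.432% and 0.557%. The MEIS motif was found in 27.7%, 15.7% and 19.2%, and the nuclear receptor half-site in 22.3%, 13.4% and 16.3%. Of the 14 motifs, only SP and KLF and SOX (0.893%, 5.04% and 5.85%) were rarer in the adult-only windows than in all windows. A higher adult-only share was thus not particular to the motifs of muscle factors. Mean GC content was 49.98% in the adult-only windows, 57.1% in the E18.5-only windows and 53.8% in all windows. Across these sets the SP and KLF share rose with GC content and the MEF2 share fell, while the E-box and NFI shares followed neither order. The part of GC content in the motif shares was not tested. A match is a description of the letters and not a bound site.

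Other muscles of the same animals and litters called the gastrocnemius regions more often at the matching stage, though not only there. Adult-only regions were called in 67.9 ± 0.685% of cases in adult vastus lateralis, 55.1 ± 3.23% in adult vastus intermedius and 42.8 ± 5.25% in adult soleus (SD, n = 3 each), and in 18.6 ± 9.41 to 19.4 ± 3.10% in the E18.5 libraries of these muscles. The adult ranges were 67.1 to 68.5%, 51.6 to 57.9% and 38.7 to 48.7%, so each library of the fast-biased vastus lateralis lay above those of both slow-biased muscles. Adult vastus lateralis also called the most regions of the other classes. Regions called in all 3 adult gastrocnemius lists were called in 86.7%, 79.8% and 74.6% of cases in the same order of muscles, those called in all 6 lists in 93.7%, 89.3% and 85.0%, and E18.5-only regions in 25.3%, 16.4% and 18.98%. The vastus lateralis lists held 155846 to 219114 peaks, the vastus intermedius lists 115333 to 145382 and the soleus lists 149426 to 211875. With equal list length the means for adult-only regions were 59.98%, 52.7% and 34.9%, and those for regions called in all 3 adult lists 80.7%, 78.1% and 68.1%. The same regions of 3 animals underlie all these values, and the order of the muscles was not tested.

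E18.5-only regions were called in 63.6 ± 13.5% of cases in E18.5 vastus lateralis, 65.5 ± 17.0% in vastus intermedius and 66.0 ± 19.4% in soleus, with overlapping ranges, and in 12.5 to 27.5% in the adult libraries. In the same order of muscles the E18.5 shares were 78.6, 81.6 and 77.7% in litter 1. They were 52.4, 67.2 and 76.9% in litter 2 and 59.8, 47.8 and 43.6% in litter 3. The part of the litter in this spread was not tested. Of the 4062 adult-only regions, 78.1% had more calls among the 9 other adult libraries than among the 9 other E18.5 libraries, and 89.5% of the E18.5-only regions had more calls at E18.5. At least 1 of the 9 other E18.5 libraries called 2741 (67.5%) of the adult-only regions. At least 1 of the 9 other adult libraries called 7943 (72.6%) of the E18.5-only regions. Called in all 9 other libraries of their stage and in 0 of 9 of the other stage were 124 adult-only and 343 E18.5-only regions. No other library called 54 adult-only and 67 E18.5-only regions.

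**Figure D5:**
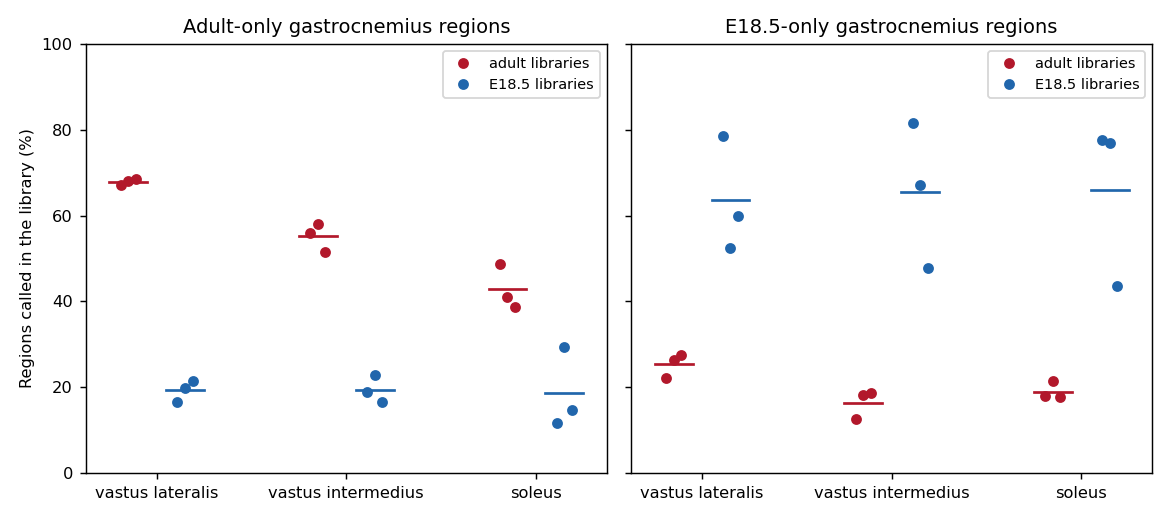
Share of the 4062 adult-only (left) and 10948 E18.5-only (right) gastrocnemius regions called in each library of 3 other muscles, 1 point per library, adult in red and E18.5 in blue, with a line at the mean of 3. In adult libraries the adult-only share falls from vastus lateralis (67.1 to 68.5%) to soleus (38.7 to 48.7%), as did the mean share of all regions called in the 3 adult lists (86.7 to 74.6%, not drawn), and at E18.5 the E18.5-only shares of the 3 muscles overlap.

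Whether the stage difference of a locus in gastrocnemius departs from its mean in the other 3 muscles was tested in 1 limma fit over all 24 libraries, with the animal or litter as a block. Of 25022 loci tested, 0 passed an adjusted p of 0.05 and 1034 (4.13%) had an unadjusted p under 0.05. Without adult 3, 1 locus passed. The interaction term, gastrocnemius minus the mean of the others, was 0.46 for Myh4 (unadjusted p = 0.517), -0.38 for Ttn (0.185), 0.09 for Neb (0.823) and -0.26 for Thrb (0.409). It was -1.77 for Col3a1 (SE 0.53, unadjusted p = 0.00285) and 0.81 for Pgm1 (unadjusted p = 0.00397), and neither passed after adjustment. No difference particular to the gastrocnemius was thus detected at the level of loci, and a p above the threshold does not show that the muscles changed alike.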

How the data were processed

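ATAC-seq was done on 3 adult and 3 E18.5 gastrocnemius libraries. The deposited lists give the chromosome, start and end of each peak of 1 library on mm10, with no score or signal. The tools listed, per the submitters' processing notes, were MACS2 (2.1.1), Bowtie2 (2.4.4), bedtools (2.25.0), SAMtools (1.14.0), Trimmomatic (0.39.0), Picard and FastQC (0.11.5). Not given in the sources used here were peak thresholds, any correction for the transposase offset, and read depth. The rows are not in genome order and peak width falls along them, and whether they are ranked is not stated.

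Peaks on chromosomes 1 to 19, X and Y were merged where they overlapped by at least 1 bp. Loci were tested with limma 3.58.1 (R 4.3.3, eBayes with trend and robust settings, Benjamini-Hochberg adjustment over all loci, two-sided). The code was also run on simulated counts, drawn as independent Poisson values with no further spread between libraries. That run therefore cannot give the error rate in these data. Genes were 34614 protein-coding and lncRNA genes of RefSeq (GRCm38.p6); RefSeq promoter windows, counts on autosomes alone, equal list lengths for the other muscles and the muscle marker sum without Ttn and Neb were added after the data had been seen. The comparison and the gene lists were chosen with earlier results of these data known. The text names 37 fixed loci, up to 10 loci per direction with the smallest p, up to 10 genes per direction with the most separated regions, up to 6 of the widest separated regions per direction and up to 3 members of each list, where they bear on a comparison; not all are printed, and some genes are not reported here. Other names were picked after their values were seen. The replicate numbers of adults and litters do not pair the libraries: same-numbered libraries had residual correlations of 0.0146, -0.0134 and 0.0505.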

Additional observations from a re-analysis of the deposited data

How the results depend on the processing

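Separated regions were more numerous at E18.5 than in the adult under every alternative run. Adult-only counts ranged from 4864 to 10924 and E18.5-only counts from 14063 to 28051 when 1 library was left out. Adult-higher and E18.5-higher loci numbered 70 and 53 with the first rows of each list, 691 and 953 with covered base pairs in place of regions, 0 and 0 without scaling, 373 and 561 with 50 kb on each side, 98 and 86 with no flank, 90 and 85 with no filter, and 167 and 208 with a pseudocount of 1. The share of adult-higher calls was 39.9% with 50 kb, against 48.5%, and 32.2 to 85.5% when 1 library was left out. With those libraries left out the counts ran from 56 to 126 and from 12 to 211. With the replicate number as a block (the correlations do not pair the libraries) they were 122 and 131. The interaction gave 0 calls under every alternative but 1, without adult 3 (1 call, smaller in gastrocnemius). Promoter windows ran from 129 to 220 (adult-only) and from 773 to 1374 (E18.5-only) when 1 library was left out. The share of called regions inside a gene reversed from -0.23 to 0.42 percentage points, adult minus E18.5, with the first rows. Over the 53 loci named with values and all alternatives, 727 results kept direction and side of the threshold, 132 lost the call, 20 gained it and 13 turned. Of the gained calls, 7 came with covered base pairs (Actn3, Atp2a1, Gbe1, Ppargc1a, Pvalb, Tnni2 and Zbtb16, all higher in the adult). The turned differences were those of Atp2a1 (-0.34 with regions merged over all 24 lists, -0.17 with 50 kb, -0.043 to 0.19 when 1 library was left out), Myh3 (0.094 with 50% cover, 0.13 with covered base pairs, 0.057 with 50 kb, -0.42 to 0.017 when 1 library was left out), Myh7 (-0.23 with the first rows, -0.14 with covered base pairs, -0.12 with 50 kb, -0.16 to 0.39 when 1 library was left out), Myh8 (-0.23 with the first rows) and Pvalb (-0.13 with no flank). The cause was not tested. The planned motif counts over the separated regions were not run, since they need a genome sequence. Read depth is unknown, so a missed call limits every count.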

Other observations

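Further loci by the rule of smallest p had more regions in the adult. Mbnl1, a splicing factor that sets the adult splice pattern of muscle, held 26, 25 and 28 regions in the adult libraries and 13, 7 and 8 at E18.5 (1.48 on the log2 scale, SE 0.23, limma adjusted p = 0.00334). Dnajc15, a co-chaperone of the mitochondrial inner membrane, held 10, 7 and 8 against 2, 1 and 1 (2.13, SE 0.33, limma adjusted p = 0.00334). Among promoter windows outside the lists, those of Capn3, a protease of the sarcomere, Nrap, an actin-anchoring protein of forming myofibrils, the ribosomal protein gene Rpl3l of striated muscle, the calcium channel subunit gene Cacnb1 and the ubiquitin ligase adaptor gene Asb5 were called in 3 adult and 0 E18.5 libraries; these 5 were picked after their values were seen.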
